A study of Homo sapiens with 4 samples.

Results

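Aminoacyl-tRNA synthetases are the enzymes that join each amino acid to its tRNA. The genes described here are 35 synthetase genes, 19 for the enzymes of the cytosol and 16 for those of the mitochondrion, out of 20056 protein-coding genes in the RefSeq table of GRCh38. They were picked by name, not by a measured value, but with earlier results of these data known. The mitochondrial genes are those whose symbols end in S2, and all the others are called cytosolic, although KARS1 and GARS1 each encode the enzyme of both compartments. In the sources used here, IGF2BP2, an RNA-binding protein that reads the RNA mark N6-methyladenosine (m6A), was immunoprecipitated with its crosslinked RNA (iRIP-seq) from Jurkat, an established human T-cell leukemia line, without any treatment or genetic change. The 2 immunoprecipitated libraries, called replicate 1 and replicate 2, each came with a list of peaks, and the 2 input libraries were not analysed here. Nothing in the labels says whether the replicates came from separate cultures, so the spread between them may be technical.

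A peak is a stretch of RNA, made of bins of 50 bases, where the peak caller found more reads (tags) piled up than when the reads of the gene were placed at random. The height of a peak is given in tags, and the lowest height listed was 4 tags for replicate 1 and 5 for replicate 2. A sense peak lies in a coding sequence (CDS), untranslated region (UTR), noncoding exon or intron of the gene to which the list assigns it, and a peak takes the name of the region that covers most of it. The lists held 74237 and 77288 sense peaks over all genes, of 145715 and 137934 peaks in all. Read depth is unknown from these lists, and a peak is not a level relative to the amount of RNA, since no RNA level was analysed. Of 10 T cell marker genes, 8 had a sense peak in both replicates, beside 49.3% of all protein-coding genes. Of the B cell and myeloid markers that could be counted, 1 of 3 and 1 of 3 did. The B cell gene was PAX5, with 5 sense peaks in each replicate. The erythroid markers could not be counted. Peaks are not expression, so these counts do not identify the cell line.

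In the cell each synthetase recognises its own tRNAs and amino acid, so the accuracy of translation begins with these enzymes. The cytosolic enzymes of glutamate and proline, isoleucine, lysine, leucine, methionine, glutamine and arginine (EPRS1, IARS1, KARS1, LARS1, MARS1, QARS1 and RARS1) are held together in the multisynthetase complex. The mitochondrial enzymes are also encoded in the nucleus, made in the cytosol and imported. IGF2BP2 and its relatives are known for prolonging the life of the mRNAs they bind, and m6A is placed mostly at an adenine inside short sequences whose core is GGAC.

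Sequences are shown for 3 shared CDS sites of FARSA and CARS1 because these are peaks found in both replicates whose bases could be read from the RefSeq promoter table (GRCh38), where the start of an antisense gene overlaps them. FARSA encodes the alpha subunit of cytosolic phenylalanyl-tRNA synthetase and CARS1 the cytosolic cysteinyl-tRNA synthetase. Both genes are on the minus strand, and the letters are those of the RNA strand, 5′ to 3′, with T for U. Capitals mark every GGAN, which is GGA followed by any base. Of these only GGAC is the m6A core, while the paper reports GGAU/G/A/C as the consensus that IGF2BP2 bound.

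FARSA site 1 (chr19:12930301-12930350, minus strand): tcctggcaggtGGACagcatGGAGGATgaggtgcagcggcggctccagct
FARSA site 2, replicate 2 extent (chr19:12930401-12930500, minus strand): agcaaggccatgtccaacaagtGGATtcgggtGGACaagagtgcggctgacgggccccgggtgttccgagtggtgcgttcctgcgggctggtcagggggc
CARS1 site (chr11:3029301-3029350, minus strand): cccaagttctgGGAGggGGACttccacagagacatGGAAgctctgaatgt

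FARSA site 1 was 5 tags high in replicate 1 and 11 in replicate 2, with all of its bases in CDS. FARSA site 2 was a 50-base peak of 7 tags in replicate 1, covering the last 50 of the 100 bases printed, and a 100-base peak of 19.5 tags in replicate 2. The CARS1 site had 6 tags in both replicates, with 96% of its bases in CDS. GGAC was present 1 time in FARSA site 1, 1 time in the CARS1 site and 1 time in the replicate 2 extent of FARSA site 2, but 0 times in the 50 bases of FARSA site 2 that replicate 1 listed. Across 185 distinct CDS peak positions of 50 bases, from any gene, that fell inside the windows of the same table, 25.4% held GGAC and 67.0% held GGAN on the RNA strand, and 17.8% and 56.2% on the other strand. On the other strand, GGAC occurred 0 times in FARSA site 1 and in the CARS1 site, and 1 time in the 100 bases of FARSA site 2. GGAN includes GGAC, and a match is a description of the letters, not a mapped m6A site.

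Most cytosolic synthetase genes carried sense peaks, and fewer of the mitochondrial ones did. Of the 19 cytosolic genes, 17 had a sense peak in both replicates, and of the 16 mitochondrial genes 9 did. Among 15854 protein-coding genes with a known strand, 49.3% had a sense peak inside the gene in both replicates, and 52.8% did among those between 16.5 and 70.9 kb, the interquartile range of the lengths of the 35 genes. By that same rule, which uses position alone, the counts were 17 of 19 (89.5%) and 8 of 16 (50%), so the mitochondrial share was close to the background. YARS2 made the difference between 9 and 8, since its replicate 2 peak lay outside the RefSeq gene. Genes were not replicates of a condition and were chosen with earlier results known, so no test was made.

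The 35 genes together held 244 sense peaks in replicate 1 and 277 in replicate 2. Of these, 176 and 219 were on cytosolic genes and 68 and 58 on mitochondrial genes. The median number per gene was 9 and 10 for the cytosolic genes and 2.5 and 1 for the mitochondrial genes, while the median of all protein-coding genes was 1 in both replicates. Averaged over the replicates, the cytosolic median was 7.75 peaks higher than the mitochondrial one.

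The genes with most peaks were AARS1, IARS1 and MARS1, for the alanyl, isoleucyl and methionyl enzymes. AARS1 had 26 sense peaks in replicate 1 and 22 in replicate 2. IARS1 had 21 and 28, and MARS1 had 20 in each. Of the other cytosolic genes, CARS1 (cysteine) had 15 and 20, FARSA 14 and 14, YARS1 (tyrosine) 11 and 18, QARS1 (glutamine) 11 and 16, and SARS1 (serine) 11 and 14. These 8 genes had at least 10 sense peaks in both replicates, and FARS2 was the only mitochondrial gene that did. Across all protein-coding genes 6.24% passed that mark.

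A middle group of cytosolic genes held fewer peaks. The valyl gene VARS1 had 9 and 11 sense peaks, the leucyl gene LARS1 8 and 7, the threonyl gene TARS1 6 and 10, and the asparaginyl gene NARS1 10 and 5. KARS1 (lysine) had 4 and 9 and GARS1 (glycine) 2 and 10, both higher in replicate 2. The 7 CDS peaks of GARS1 were all in replicate 2, where its highest peak had 11 tags, against 5 tags in replicate 1. At the low end, WARS1 (tryptophan) had 2 and 5 peaks, EPRS1 3 and 4, and RARS1 (arginine) 1 and 2. FARSB, the beta subunit that pairs with FARSA, had 2 peaks in replicate 1, both intronic and of 4 tags, and 0 in replicate 2. HARS1 (histidine) had 0 in replicate 1 and 4 in replicate 2, the highest of 9 tags.

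FARSA and FARSB thus stood far apart, although their products form 1 enzyme. FARSA spans 11.2 kb and FARSB 89.2 kb, and the shorter gene held 28 of the 30 peaks of the pair over both lists.

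Of the mitochondrial genes, FARS2 (phenylalanine) had 16 sense peaks in each replicate, all in introns. It is also by far the longest of the 35 genes, at 521.6 kb. Of its 32 peaks over both lists, 29 lay inside the RefSeq gene or within 1000 bases of it. VARS2 (valine) had 11 and 9, CARS2 (cysteine) 9 and 7, LARS2 (leucine) 9 and 7, NARS2 (asparagine) 6 and 5, AARS2 (alanine) 3 and 6, and WARS2 (tryptophan) 1 and 5. SARS2 (serine) had 4 and 1, and YARS2 (tyrosine) 1 and 1. Genes with a peak in replicate 1 only were RARS2 (arginine) with 4, HARS2 (histidine) with 2 and TARS2 (threonine) with 2, and IARS2 (isoleucine) had 1 peak, in replicate 2 only. EARS2 (glutamate), MARS2 (methionine) and PARS2 (proline) had 0 sense peaks in either list. The VARS2 peaks belong to the identifier ENSG00000288473, matched by position, as was every identifier here. None of them was a CDS or UTR peak, and 7 in each list were noncoding exon peaks. Whether they come from the VARS2 mRNA or from another transcript over it was not settled. Without VARS2, 8 of 15 mitochondrial genes had a sense peak in both replicates.

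Cytosolic and mitochondrial genes also differed in where along the RNA the peaks lay. CDS was the main region of 55.1% of the cytosolic sense peaks in replicate 1 (97 of 176, 95% Wilson interval 47.7 to 62.3) and 53.9% in replicate 2 (118 of 219, 47.3 to 60.4). For the mitochondrial genes the CDS share was 13.2% (9 of 68, 7.12 to 23.3) and 6.90% (4 of 58, 2.71 to 16.4). Over all genes, 19.9% and 25.6% of sense peaks were CDS peaks. The cytosolic share was thus above that of all genes in both libraries, and the mitochondrial share was below it in both, although the replicate 1 interval of the mitochondrial share includes the share of all genes. Over the 35 genes together the CDS share was 43.7% ± 0.425 (SD, n = 2). These intervals cover counting error only and treat the peaks of 1 gene as independent, which they are not.

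Wholly intronic peaks, with no base in an exon, made up 15.9% and 14.2% of the cytosolic peaks, 60.3% and 67.2% of the mitochondrial peaks, and 62.8% and 53.9% of the sense peaks of all genes. The cytosolic share was below that of all genes in both libraries, while the mitochondrial share was below it in replicate 1 and above it in replicate 2. Without VARS2 the mitochondrial share was 71.9% and 79.6%, above that of all genes in both. Over the 35 genes, 7 and 7 peaks had the 5′ UTR as main region, and 7 and 9 the 3′ UTR. These counts were not set beside a UTR share of all genes. All of the 3′ UTR peaks were on cytosolic genes, which held 176 of the 244 and 219 of the 277 sense peaks. Of the 9 in replicate 2, 5 were on YARS1, which had 0 in replicate 1.

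**Figure D1:**
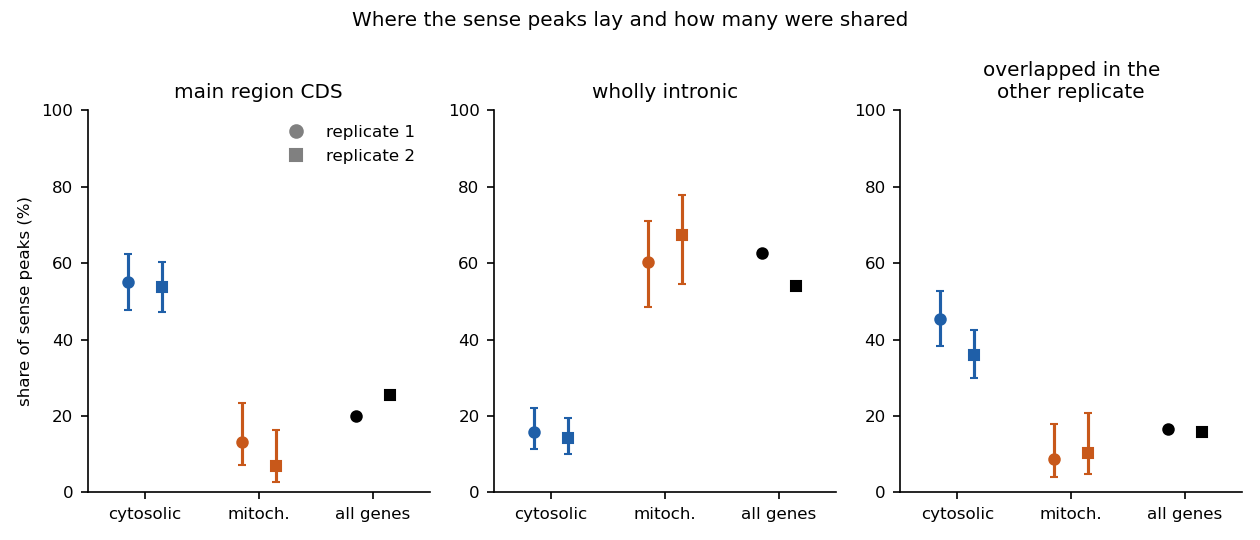
Share of sense peaks (%, vertical axis) whose main region was CDS (left), that lay wholly in introns (middle) and that were overlapped by a sense peak of the other replicate (right), for cytosolic, mitochondrial and all genes; circles are replicate 1, squares replicate 2, and bars the 95% Wilson interval. The cytosolic points lie above all genes on the left and right and below them in the middle.

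A CDS peak in both replicates was found on 14 of the 19 cytosolic genes and on 1 of the 16 mitochondrial genes. Among all protein-coding genes 18.6% had one, and 21.4% did in the length range given above. The mitochondrial gene was AARS2, with CDS peaks of 5 and 4 tags in replicate 1 and of 6 and 6 tags in replicate 2, none of which overlapped a peak of the other list. The cytosolic genes outside this count were EPRS1, GARS1, HARS1, RARS1 and FARSB.

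Peaks called at the same place in both lists came almost all from cytosolic genes. In replicate 1, 35.2% of the sense peaks of the 35 genes (86 of 244, 95% Wilson interval 29.5 to 41.4) overlapped a replicate 2 peak of the same strand by at least 1 base. For the cytosolic genes the share was 45.5% (80 of 176, 38.3 to 52.8), for the mitochondrial genes 8.82% (6 of 68, 4.11 to 17.9), and for all genes 16.6%. Seen from replicate 2, the shares were 36.1%, 10.3% and 15.8%. VARS2 held 4 of the 6 shared mitochondrial peaks in each list, and without it the mitochondrial shares were 3.51% (2 of 57) and 4.08% (2 of 49). A shared peak was present on 14 of 19 cytosolic and 2 of 16 mitochondrial genes, CARS2 and VARS2, beside 17% of all protein-coding genes.

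Sharing was also counted by whether a peak touched an exon. Of the cytosolic peaks that touched an exon, 79 of 148 (53.4%) in the first list and 78 of 188 (41.5%) in the second were shared, against 39.8% and 30.6% over all genes. Of the mitochondrial peaks that touched an exon, 5 of 27 (18.5%) and 5 of 19 (26.3%) were shared, and without VARS2 1 of 16 and 1 of 10. Of the wholly intronic cytosolic peaks, 1 of 28 and 1 of 31 were shared, and of the mitochondrial ones 1 of 41 and 1 of 39. Over all genes 2.91% and 3.22% of wholly intronic peaks were shared, so intronic peaks of the synthetase genes repeated about as rarely as those of other genes. None of the 32 peaks of FARS2 and none of the 16 peaks of LARS2 was shared.

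The 87 overlapping pairs of peaks fell on 16 genes, with 81 pairs on cytosolic and 6 on mitochondrial genes. In 58 pairs both lists gave the same start and end. In 76 pairs both peaks held some CDS. In 46 of the 87 pairs the replicate 1 peak crossed from CDS into intron, and whether the reads of such peaks came from spliced RNA was not tested. The height was greater in replicate 2 in 62 pairs, equal in 7 and greater in replicate 1 in 18. The median ratio of replicate 2 over replicate 1 was 1.33, beside 1.40 for the 12463 overlapping pairs of all genes.

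**Figure D2:**
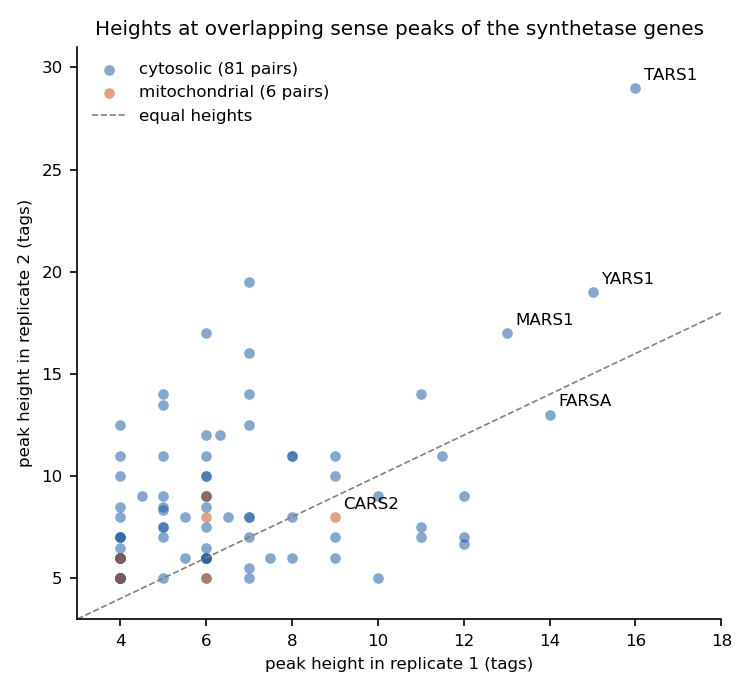
Height in tags of the 87 overlapping peak pairs in replicate 1 (horizontal axis) and replicate 2 (vertical axis), in blue for cytosolic and orange for mitochondrial genes, with the dashed line where heights are equal and darker points where pairs coincide. The TARS1 site stands apart at 16 and 29 tags, and the 6 mitochondrial pairs reach no more than 9 tags in either replicate.

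The highest shared site lay in TARS1, the gene of cytosolic threonyl-tRNA synthetase, at chr5:33445301-33445350 on the plus strand. It reached 16 tags in the first list and 29 tags in the second, the highest peak of the 35 genes in each, and 54% of it was CDS and 46% intron. YARS1 followed at chr1:32782401-32782450 (minus strand), with 15 and 19 tags and 94% in CDS. The MARS1 site at chr12:57489001-57489050 (plus strand) had 13 and 17 tags, 64% in CDS and 36% in noncoding exon, close to the start of the gene. FARSA had its highest shared site at chr19:12925051-12925100 (minus strand), with 14 and 13 tags, 22% in CDS and 78% in intron. These 4 genes were the only ones of the 35 with a shared site of at least 10 tags in both lists, 6 sites in all. This count was not set beside that of all genes.

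In AARS1 2 shared CDS sites tied on the lower height of 9 tags, chr16:70253701-70253800 (minus strand, replicate 1 extent) near the end of the gene, with 9 and 10 tags, and chr16:70264951-70265000, with 12 and 9 tags. SARS1 had 10 and 9 tags at chr1:109237701-109237750 (plus strand), 40% CDS and 60% intron, also near the end of the gene. The CARS1 site at chr11:3042151-3042200 (minus strand) had 8 tags in each list. CARS2 was the only mitochondrial gene among the first 10 ranked by the lower height, with 9 and 8 tags in a noncoding exon at chr13:110713301-110713350 (minus strand, replicate 1), at the start of the gene. IARS1 had 8 and 11 tags at chr9:92262951-92263000 (minus strand, 64% CDS) and the same heights at chr9:92271501-92271550 (36% CDS). KARS1 had 7 and 14 tags at chr16:75640151-75640200 (minus strand, 34% CDS and 66% noncoding exon). QARS1 and VARS1 tied with KARS1 on the lower height of 7 tags.

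**Figure D3:**
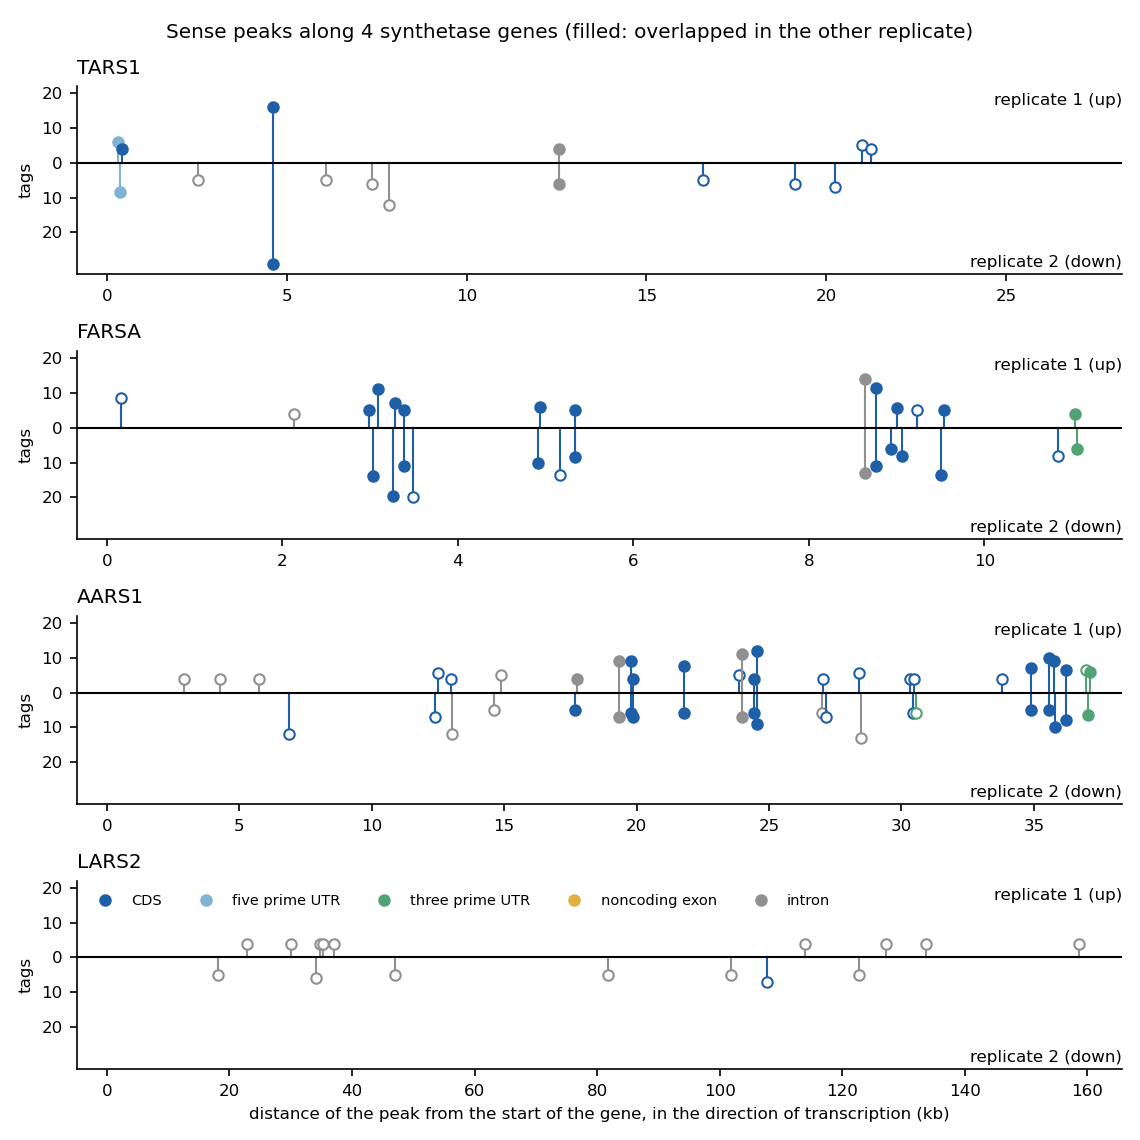
Sense peaks of TARS1, FARSA, AARS1 and LARS2 by distance from the start of the gene (kb, horizontal axis) and height in tags, replicate 1 upward and replicate 2 downward, coloured by main region, with filled points where the other replicate had an overlapping peak. Shared peaks recur along FARSA and AARS1 and tower at a single site in TARS1, while LARS2 shows low, scattered, mostly intronic peaks with no filled point.

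AARS1 had 13 shared peaks in each list, FARSA 11, IARS1 11, QARS1 9, SARS1 9 and MARS1 7. FARSA had 11 of its 14 peaks shared in each list, and QARS1 9 of 11 in replicate 1 and 9 of 16 in replicate 2. At the other end, YARS1 had 2 shared peaks out of 11 and 18, although the first of them ranked next to TARS1 among all 35 genes by the lower of both heights. CARS1 had 4 shared peaks out of 15 and 20, where 8 and 15 of its peaks were intronic.

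Heights set the classes apart as well. In replicate 1, 17 of 176 cytosolic peaks (9.66%) reached 10 tags, and in replicate 2, 46 of 219 (21.0%) did, beside 2.73% and 8.75% of the sense peaks of all genes. None of the mitochondrial peaks, 0 of 68 and 0 of 58, did, and the highest had 9 tags in each list. In both lists, 8 cytosolic genes held peaks that reached 10 tags (AARS1, CARS1, FARSA, IARS1, MARS1, SARS1, TARS1 and YARS1), beside 4.27% of all protein-coding genes. GARS1, KARS1, LARS1, QARS1 and VARS1 reached 10 tags in replicate 2 only, and NARS1 in replicate 1 only. The lowest listed height was the height of 44.9% and 31.1% of cytosolic peaks, of 76.5% and 58.6% of mitochondrial peaks, and of 66.8% and 54.4% of the sense peaks of all genes.

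Among the cytosolic genes, the number of peaks did not follow gene length. Their median length was 32.8 kb, beside 28.4 kb for the mitochondrial genes and 25.6 kb for all protein-coding genes. Spearman's rho between gene length and the mean number of sense peaks was -0.07 over the 19 cytosolic genes and 0.60 over the 16 mitochondrial genes, as a description of genes from the same libraries. QARS1, at 8.83 kb one of the shorter genes, had 11 and 16 peaks, whereas EPRS1, at 77.9 kb, had 3 and 4. Per 10 kb of gene, the median number of peaks was 2.52 and 3.54 for the cytosolic genes and 0.543 and 0.333 for the mitochondrial genes. The order of the genes was alike in both lists, with a Spearman's rho of 0.85 between the replicate counts over the 35 genes.

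For 13 amino acids the 35 genes held 1 cytosolic gene and 1 mitochondrial gene whose symbols differ only in the last digit. Phenylalanine, with both FARSA and FARSB in the cytosol, and glutamate and proline, which share EPRS1 there, have no such pair of genes and are given apart. The cytosolic gene had more sense peaks in 9 of the 13 in replicate 1 and in 10 of 13 in replicate 2, and in 7 it had more in both, namely alanine, cysteine, isoleucine, methionine, serine, threonine and tyrosine. Wide gaps were those of isoleucine, with 21 and 28 peaks on IARS1 and 0 and 1 on IARS2, of methionine, with 20 and 20 on MARS1 and 0 and 0 on MARS2, and of alanine, with 26 and 22 on AARS1 and 3 and 6 on AARS2. The mitochondrial gene had more peaks in replicate 1 for histidine (2 against 0), leucine (9 against 8), arginine (4 against 1) and valine (11 against 9), and in replicate 2 for 0 of the 13. The counts were equal in replicate 2 for leucine, asparagine and tryptophan. The cytosolic gene was the longer one in 8 of the 13. For phenylalanine the mitochondrial gene was assigned more peaks in both lists than either cytosolic gene. FARS2 had 16 and 16, beside 14 and 14 on FARSA and 2 and 0 on FARSB. The FARS2 peaks of replicate 1 at chr6:5780701-5780750 and chr6:5808851-5808900 lay beyond the end of the RefSeq gene. Without them FARS2 had no more peaks than FARSA in replicate 1. For glutamate and proline, EPRS1 had 3 and 4, and EARS2 and PARS2 had 0.

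Within the cytosolic class, the genes of the multisynthetase complex were set beside the others. The 7 complex genes had medians of 8 and 9 sense peaks, and the 12 others 9.5 and 10.5. Their CDS shares were 54.4% and 60.5%, against 55.6% and 49.6% for the others, so the order of the groups differed between the replicates. Within the complex the genes ranged from IARS1 and MARS1 at the top to EPRS1 and RARS1 at the bottom. The 3 scaffold genes of the complex had a median of 1 peak in each replicate, as did all protein-coding genes. Counted by position, AIMP1 had 0 and 1, AIMP2 2 and 0, and EEF1E1 1 and 3. Thus 1 of the 3 had a peak in both replicates, beside 49.3% of all protein-coding genes.

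Other genes around tRNA charging were counted by the same rule, beside the 49.3% of all protein-coding genes. Of the helper and proofreading genes of tRNA charging that could be counted, 7 of 9 had a sense peak in both replicates. A CDS peak in both was found on 1 of them, XPOT, the tRNA exporter, and 0 reached 10 tags in both. In the delivery of charged tRNA to the ribosome, 6 of 8 genes had a peak in both, the same number had a CDS peak in both, and 4 reached 10 tags in both. EEF2, the cytosolic translocase, had 12 and 16 peaks, 8 and 15 of them of at least 10 tags, and EEF1D, a subunit of the exchange factor, had 22 and 30. Of the mitochondrial factors, TUFM had 5 and 7 peaks, whereas TSFM had 2 and 0 and GFM1 4 and 0. In the amino acid starvation response, under which several synthetase genes are known to be transcribed, 9 of 9 countable genes had a peak in both replicates and 5 had a CDS peak in both. Its main transcription factor, ATF4, had 9 and 7 peaks, 6 of the 9 overlapped by replicate 2. Asparagine synthetase (ASNS), which makes an amino acid and is not a tRNA synthetase, had 2 and 3.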

How the data were processed

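The authors sequenced 2 IGF2BP2 iRIP and 2 input libraries of Jurkat cells. Per the study's methods they aligned reads with TopHat2, kept unique reads, called peaks in each library separately against simulated read placement, and removed peaks overlapping the input. The submitters' processing notes name bcl2fastq, TopHat2 and GRCh38. The deposited peak lists give each peak's position, strand, region fractions, Ensembl identifier, height in tags (a read pile-up signal, 98.6% and 97.2% whole numbers) and the peak caller's p-value, of which the highest deposited was 0.00759 and 0.00437. Filters on height differ between the lists (4 and 5 tags), which affects counts of peaks and of shared peaks.

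Here, intervals were read as half-open, and identifiers were matched to the genes by position (within 1000 bases of the RefSeq gene, same strand, at least 50% of the identifier's sense peaks inside); 32 of 35 genes had one. RefSeq strand was taken from the promoter table for 30 genes and from the peaks for the others. The background was counted by position over 15854 protein-coding genes with a strand. No test was made: there is 1 condition. The 95% Wilson intervals cover counting error only. The members and gene lists were chosen with earlier results of these data known. All members were named with their counts, and sites were given for the 10 ranking first by the lower of both heights, with QARS1 and VARS1 named as ties. The overlap and naming functions were tested on simulated data. Alternatives were a minimum of 5 or 10 tags, a p-value under 0.01, exonic or CDS peaks only, other overlap rules, length scaling, position matching and leaving out each replicate. Python 3.11.15, numpy 2.4.6, pandas 2.3.3, scipy 1.17.1 and matplotlib 3.10.9 were used.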

Additional observations from a re-analysis of the deposited data

Results flagged for a closer look

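Antisense peaks lie outside every comparison above. They are peaks that the lists place on the strand opposite to a synthetase gene, and they numbered 35 in replicate 1 and 26 in replicate 2. They were on 20 and 13 of the 35 genes, had median heights of 4 and 5 tags and reached 6 tags in each list. FARS2 held 7 and 8 of them. For every 100 sense peaks there were 9.09 and 5.48 antisense peaks on the cytosolic genes, 27.9 and 24.1 on the mitochondrial genes, and 39.1 and 29.9 over all genes. No control library was analysed against which these counts could be set.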

How the results depend on the processing

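Under a minimum of 10 tags, 8 cytosolic and 0 mitochondrial genes kept a sense peak in both replicates, the difference of the medians was 1 peak and the CDS share 64.6%. With at least 5 tags, 5 mitochondrial genes had one, the CDS share was 51.04% and the share of replicate 1 peaks overlapped by replicate 2 was 56.25%, since this leaves out the 4-tag peaks that only replicate 1 could list. With exonic peaks only, 3 mitochondrial genes counted and the overlap was 45.5%, and with CDS peaks only, 1 mitochondrial gene. The CDS share weighted by length was 44.5%, and the difference of medians per 10 kb was 2.59 peaks. Leaving out 1 replicate gave 18 to 18 cytosolic and 10 to 12 mitochondrial genes, a difference of 6.5 to 9 peaks and a CDS share of 43.4 to 44.0%. The p-value filter changed nothing, as no listed p-value reached 0.01. No alternative run reversed a result. CDS peaks per kb of coding length was not run, because no table of proteins or exons was used here. No paired analysis was possible because the result comes from no test and the inputs were not analysed here. Depth and RNA level were unknown, and per the study's methods peaks overlapping the input were removed. A gene with 0 peaks thus cannot be told apart from a gene with too few reads or one whose peaks were removed.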

Other observations

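Inside MARS2, which had 0 sense peaks of its own, replicate 2 listed 2 peaks on the strand of the gene, of 7 and 5 tags, that the list assigned as intronic to another identifier. MARS2 spans 3.03 kb, and replicate 1 listed no peak there.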
